A study of Drosophila melanogaster with 3 samples.

Results

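The NK homeobox cluster of *Drosophila melanogaster* is a run of 6 homeobox genes on arm 3R: *tin*, *bap*, *lbl*, *lbe*, *C15* and *slou*. All 6 were found in the annotation, among 13945 protein-coding genes on the 6 arms. The data are ChIP-seq peak lists from whole white prepupae, males and females together, of a transgenic line in which the homeodomain protein OdsH carries GFP at its C terminus. An antibody to GFP was used for the precipitation, chromatin was sonicated, and fragments were 200 to 800 bp long. There was 1 group of 3 biological replicates, all of the same fly line. The labels do not name the promoter that drives the fusion, and no untagged or second-stage animals were analysed here. The regions described are the summits of the authors' set of reproducible peaks (irreproducible discovery rate, IDR; build dm6) that lay inside a member or within 5000 bp of it on either side. Of 8700 IDR summits, 1 met this rule, at *tin*.

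Genes of the NK cluster encode homeodomain transcription factors that are best known from the mesoderm. In the fly embryo *tin* is needed for the heart and the dorsal mesoderm, and *bap* acts downstream of it in the visceral mesoderm that forms gut muscle. The paired genes *lbl* and *lbe* and the gene *slou* give identity to particular muscles, with the *lb* genes also active in the heart, and *C15* patterns the tip of the leg. OdsH is a homeodomain protein of the paired class. In whole animals a peak can come from any tissue, and a site bound in few cells cannot be told apart from one bound weakly in many.

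The values are those of the authors' peak caller, a signal value per peak that was compared within 1 list only. IDR peaks ran from 77.5 to 3230 with a median of 153. The pooled list and each replicate list held 30000 rows, described by the depositors as peaks together with background. Support by a replicate means that the peak shared 1 bp or more with any of that replicate's 8700 strongest rows. The sequencing depth behind a peak is unknown here. All 3 replicates supported 71.0% of the IDR peaks.

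OdsH-GFP had a strong peak at the promoter of *tin* and no IDR summit at the other 5 genes. By the same rule 50.9% of all protein-coding genes (7103 of 13945) had an IDR summit, as did 54.6% of the 8058 genes whose windows, gene plus flanks, were between the shortest and the longest of the cluster genes. The cluster genes stood at 1 of 6 (16.7%). In each replicate's own 8700 strongest rows, *tin* had a summit in all 3, and *C15* in replicate 3 alone, while 54.9% ± 1.57 (SD, n = 3) of protein-coding genes had one. With 6 genes chosen when earlier results were known, no test of this share was made.

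**Figure D1:**
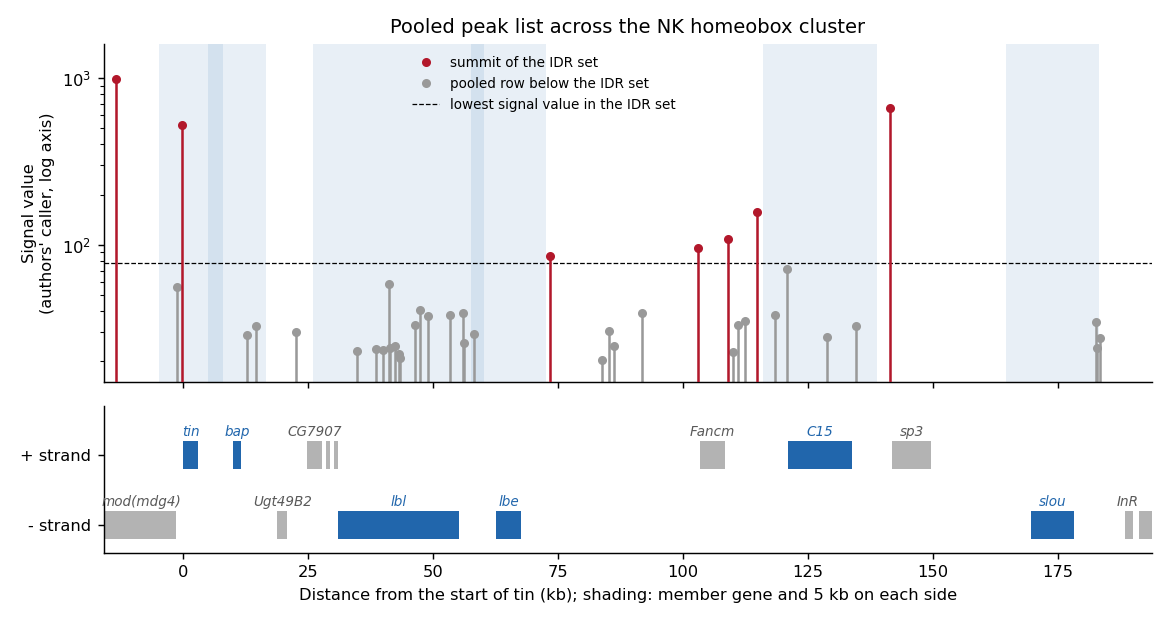
Signal value (log axis) of each row of the pooled list against distance from the start of tin in kb, with genes by strand below. Red points are IDR summits, grey points are rows below the IDR set, the dashed line is the lowest IDR value (77.5), and blue shading marks each cluster gene with 5 kb on each side. The summit at tin (523) is the single red point in a shaded window; grey points crowd over lbl.

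The *tin* gene (3R, 21378977 to 21381970, plus strand, 1 annotated start) had its IDR peak at 21378595 to 21378916. The summit, at 21378754, lay in intergenic sequence 223 bp upstream of the start. Its signal value in the pooled set was 523, which is 3.43 times the IDR median, and its rank was 665 of 8700. In the lists of replicates 1, 2 and 3 the same peak had signal values of 157, 209 and 151. Its ranks there were 508, 772 and 801, so that all 3 replicates placed it well inside their 8700 strongest rows. Of the 7103 genes with a summit by the same rule, 1540 (21.7%) had one at least this strong.

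The next gene upstream of *tin* is *mod(mdg4)*, which encodes a chromatin and insulator protein and is transcribed the other way. The starts of *tin* and *mod(mdg4)* are 1576 bp apart. The summit lay 223 bp from the *tin* start and 1353 bp from that of *mod(mdg4)*, and so within 5000 bp of both genes. A second row of the pooled list (signal value 56.0, rank 11453, below the IDR set) had its summit at 21377665, nearer to *mod(mdg4)* than to *tin*. It was present in the full lists of all 3 replicates, at ranks 12074, 10538 and 16379.

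The sequence at the *tin* summit is shown because it is the one IDR region that the cluster genes hold. It gives the plus strand of chr3R:21378654-21378854 (dm6), read from the RefSeq release 6 assembly, with capitals from the pooled summit to the farthest replicate summit, a span of 23 bp.

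tin promoter summit: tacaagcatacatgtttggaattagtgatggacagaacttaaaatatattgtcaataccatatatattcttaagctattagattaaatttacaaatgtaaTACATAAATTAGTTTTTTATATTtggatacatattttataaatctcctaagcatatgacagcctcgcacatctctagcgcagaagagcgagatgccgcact

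The capitals are made almost wholly of A and T. GC content was 18.8% within 50 bp of the pooled summit and 22.1% ± 3.75 (SD, n = 3) within 50 bp of each replicate's own summit. Over all 8700 IDR summits the mean was 31.8% ± 8.08 (SD over peaks), and 3.03% of them were at or below the value at *tin*. The value depended on the width of the window: with 100 bp to each side, the sequence printed above, GC at *tin* was 30.3%. The mean over all IDR summits was not computed for that width. It too rose away from the summit, to 38.3% in windows centred 100 bp to the left and 38.9% to the right. Windows 500 bp away had 25.7% GC on the left and 53.5% on the right at *tin*, against a mean of 43.5% over all IDR summits. At that distance the sequence was thus GC-poor on the side away from *tin* and GC-rich on the side of the gene.

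Words known for homeodomain binding were searched on both strands: TAATTA and TAATTG, which many homeodomains bind, the NK-type word CACTTGA, the shorter AAGTG, which overlaps CACTTGA on the other strand, and the paired-class dimer site, TAAT and ATTA with 3 bases between them. The *tin* window held none of these 5 words, within 50 bp of the summit or in the 100 bp to each side printed above. The shorter core TAAT, or ATTA on the other strand, was not searched alone. It does occur in the printed sequence, and its share over all IDR windows was not computed. With 100 bp to each side, 36.6% of IDR windows held none of them. TAATTA was in 18.1%, TAATTG in 19.8%, CACTTGA in 3.54%, AAGTG in 42.9% and the dimer site in 3.10%. A word missing from this window says nothing further about the protein.

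*bap* (3R, 21388880 to 21390449, plus strand) had no IDR summit, and the nearest, that of *tin*, lay 10126 bp upstream. The pooled list held 2 rows in its window, with signal values of 32.8 and 29.0 (ranks 17971 and 19870), both downstream of the gene. Each overlapped a row of replicate 3 only. Replicate 2 had no row in the window among its 30000, and the strongest of replicate 1 ranked 29785.

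*lbl* (3R, 21409979 to 21434133, minus strand) is the longest gene of the cluster, and its window of 34155 bp held no IDR summit. The window held 15 weak rows of the pooled list instead, with signal values from 20.8 to 58.4. Of these, 11 were intronic and 1 exonic. The strongest, in an intron 14009 bp downstream of the start, had a rank of 11090. Its ranks in replicates 1, 2 and 3 were 10335, 14491 and 11254, all below the 8700 strongest. Of the 15 rows, 7 overlapped a row of all 3 replicates, 4 of 2 replicates and 4 of 1 replicate, and some neighbouring rows overlapped the same replicate row. Among the 247 genes with a window within 10% of that length, the median was 8 rows, 21.1% had 15 or more, and 82.2% had an IDR summit.

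*lbe* (3R, 21441577 to 21446537, minus strand) had 1 row in its window, with a signal value of 29.3 and rank 19691. That row lay in sequence shared with the window of *lbl*, between the genes, and was in all 3 full lists at ranks 23200, 27615 and 20597. An IDR summit stood just outside the window, at 21452333, which is 5796 bp upstream of the *lbe* start. It was a weak one: signal value 85.3, rank 7983, with 20.7, 40.0 and 22.3 in replicates 1, 2 and 3. Its ranks of 10159, 8099 and 9176 left it supported by replicate 2 alone.

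*C15* (3R, 21499986 to 21512814, plus strand) had 4 rows below the IDR set. The strongest lay at its promoter, 251 bp upstream of the start, with a signal value of 72.0 against the lowest IDR value of 77.5, and a rank of 9266. The replicates placed it differently. Signal values were 14.1, 27.6 and 34.3 in replicates 1, 2 and 3, at ranks 15167, 11574 and 6183. It was thus inside the 8700 strongest rows in replicate 3 and well outside them in the other replicates. The nearest IDR summit, at 21493740, was 6246 bp upstream of *C15*, just past the limit of 5000 bp. That summit had a signal value of 157 (rank 4228) and ranks of 3435, 5562 and 4041, so all 3 replicates supported it.

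These 3 regions are printed because they lie nearest to the limits of the rule: the *C15* promoter row just below the IDR set, and the distal summits of *C15* and *lbe* just outside the window. Each reaches 100 bp to each side on the plus strand (chr3R:21499635-21499835, chr3R:21493640-21493840 and chr3R:21452233-21452433), with capitals from the first to the last of the pooled and replicate summits.

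C15 promoter row: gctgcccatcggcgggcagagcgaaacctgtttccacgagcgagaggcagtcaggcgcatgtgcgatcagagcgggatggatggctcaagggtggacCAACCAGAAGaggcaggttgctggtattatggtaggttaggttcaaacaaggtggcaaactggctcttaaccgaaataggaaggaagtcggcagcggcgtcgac

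C15 distal summit: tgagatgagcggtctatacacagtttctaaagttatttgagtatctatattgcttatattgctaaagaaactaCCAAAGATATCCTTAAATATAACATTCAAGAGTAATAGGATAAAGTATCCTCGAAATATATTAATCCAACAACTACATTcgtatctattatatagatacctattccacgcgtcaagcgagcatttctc

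lbe distal summit: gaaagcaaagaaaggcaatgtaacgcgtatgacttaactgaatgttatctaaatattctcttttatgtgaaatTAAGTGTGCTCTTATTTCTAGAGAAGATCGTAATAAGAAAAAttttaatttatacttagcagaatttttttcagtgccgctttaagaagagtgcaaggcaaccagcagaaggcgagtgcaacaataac

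The summits of the *C15* promoter row agreed within 10 bp, those of the *lbe* distal summit within 42 bp and those of the *C15* distal summit within 79 bp. Composition set them apart. Within 50 bp of the summit the *C15* promoter row had 53.5% GC, above the IDR mean of 31.8%. The distal summits of *C15* and *lbe* had 26.7 and 24.8%, between the IDR mean and the 18.8% at *tin*. Of the searched words, the *lbe* distal summit held 1 AAGTG, which starts 26 bp before the summit, and the *C15* regions held none. Within 50 bp of the summit AAGTG occurred at 23.6% of IDR summits.

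**Figure D2:**
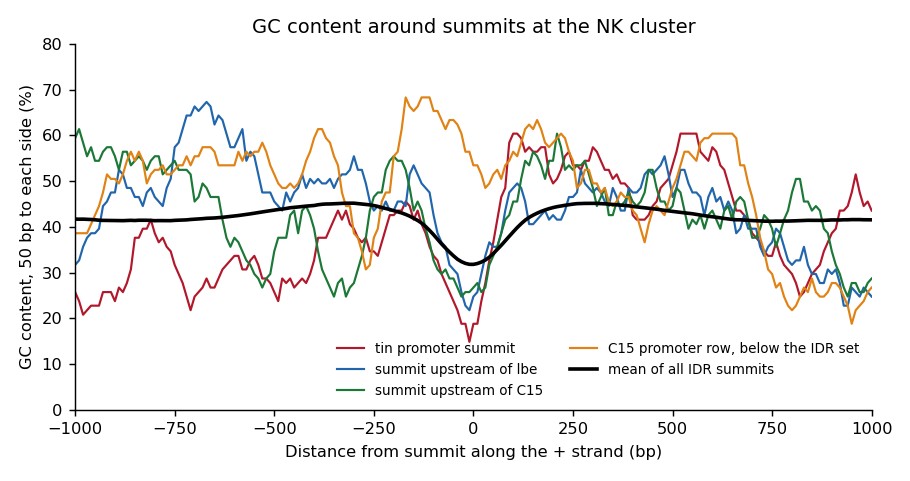
GC content within 50 bp of each position against distance from the summit along the plus strand, in bp. The red line is the tin promoter summit (18.8% at the summit), the green and blue lines the summits upstream of C15 (26.7%) and lbe (24.8%), the orange line the C15 promoter row (53.5%), and the thick black line the mean of all IDR summits (31.8%). The orange line lies above the mean at the summit, and the other coloured lines lie below it.

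*slou* (3R, 21548661 to 21557182, minus strand) lay farthest from any IDR summit, 28309 bp, with the nearest one downstream of it beside *sp3*. Its window held 2 rows, with signal values of 34.7 and 24.2 (ranks 17106 and 23076), 4408 and 4620 bp upstream of the start. Both overlapped the same row in replicate 1 (rank 17802) and in replicate 3 (rank 13279). Replicate 2 had no row in the window.

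**Figure D3:**
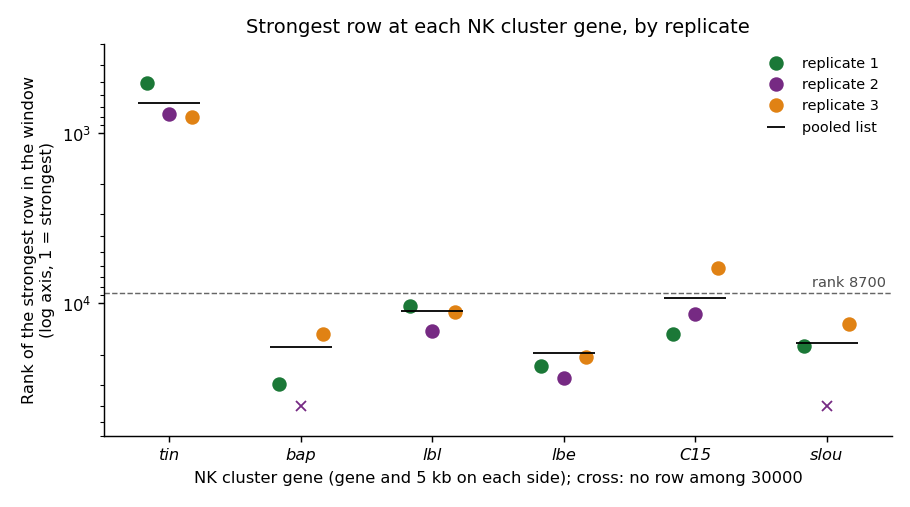
Rank of the strongest row in the window of each cluster gene (log axis, strongest at the top) in replicates 1, 2 and 3, with a black bar for the pooled list and a dashed line at rank 8700. The points of tin lie between 508 and 801; of the other genes, only C15 in replicate 3 (6183) is above the line. Crosses mark bap and slou in replicate 2, which had no row.

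Rows of any strength were found at all 6 genes in the pooled list, against 70.6% of protein-coding genes. The median window was 16.7 kb for the cluster genes and 12.2 kb for all protein-coding genes. Beside genes with a window within 10% of their own, *tin*, *bap* and *lbl* had more rows than the median. For *tin* and *bap* this was 2 rows against a median of 1, and 47.8 and 46.5% of such genes had at least as many. For *lbl* the share was 21.1%. *C15* had as many rows as the median, and *lbe* and *slou* had fewer. Their shares were 59.9, 69.8 and 69.0%. The single row of *lbe* was also counted for *lbl*. There were 25 separate rows in the 6 windows, which together cover 109383 bp. Per 10 kb the windows of *tin*, *bap*, *lbl*, *lbe*, *C15* and *slou* held 1.54, 1.73, 4.39, 0.668, 1.75 and 1.08 rows. The density of pooled rows over the arms was not computed. These values thus compare the 6 windows with each other and show no excess or lack. The order of the genes by their strongest pooled row was *tin* (523), *C15* (72.0), *lbl* (58.4), *slou* (34.7), *bap* (32.8) and *lbe* (29.3). The place of *tin* at the head held in every replicate, while *C15* and *lbl* changed places: *lbl* was ahead in replicate 1 (ranks 10335 and 15167), and *C15* in replicates 2 (11574 and 14491) and 3 (6183 and 11254). The last 3 genes also changed order between replicates.

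Longer genes had summits more often, so each cluster gene was set beside genes with a window within 10% of its own length. Of such genes, 43.1% of 8002 had an IDR summit for *bap*, 55.2% of 1934 for *lbe*, 64.3% of 809 for *slou* and 70.3% of 519 for *C15*. The share for *tin* was 48.5% of 4487. The share was highest for *lbl* (82.2%). *bap*, without a summit, had the shortest window of the 6 genes (11570 bp) and *tin* the next (12994 bp), while the other 4 genes without a summit had longer ones.

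**Figure D4:**
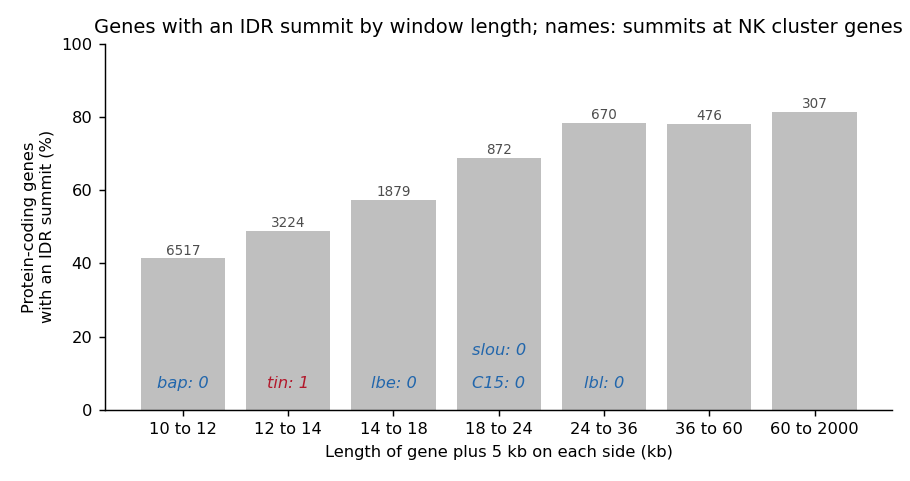
Percent of protein-coding genes with an IDR summit, by length of the gene plus 5 kb on each side in kb, with the number of genes above each bar. Names give the number of IDR summits at each cluster gene in its length class: 1 for tin and 0 for the others. The share is 41.4% in the shortest class and 81.4% in the longest.

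Measured from the gene rather than counted in a window, the nearest IDR summit was 223 bp from *tin*, 5796 bp from *lbe*, 6246 bp from *C15*, 10126 bp from *bap*, 18200 bp from *lbl* and 28309 bp from *slou*. The median over all protein-coding genes was 4767 bp. The distances of *lbe* and *C15* were unremarkable, since 45.7 and 44.1% of genes were as far or farther. For *bap* and *lbl* the shares were 32.0 and 17.8%, and for *slou* 9.78%. None of these shares was matched for gene length. A summit inside a gene counts as a distance of 0, so long genes such as *lbl* have more room for a short distance.

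**Figure D5:**
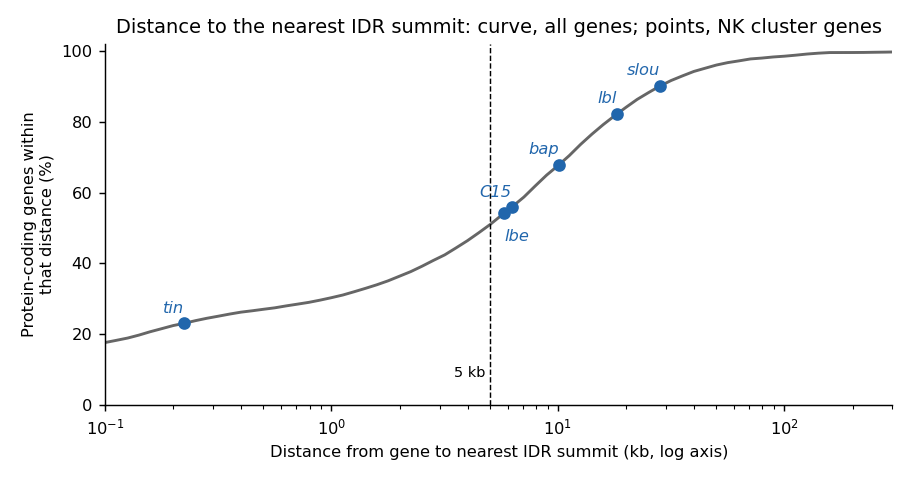
Percent of protein-coding genes whose nearest IDR summit is within a given distance in kb (log axis); points mark the cluster genes and the dashed line the 5 kb limit. The point for tin is at 0.223 kb, those of lbe and C15 are just right of the line, and slou is farthest at 28.3 kb.

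Between the start of *tin* and the end of *slou* the cluster spans 178206 bp, in which 5 IDR summits lay, or 2.81 per 100 kb, against 6.50 per 100 kb over the 6 arms. The *tin* summit lay just before this interval and is not among the 5, none of which lay in the window of a cluster gene. In the replicates' own 8700 strongest rows the density was 2.43 ± 0.329 per 100 kb (SD, n = 3). When the arms were laid out in 748 tiles of this length, the median tile held 11 summits, and 28.2% of tiles held 5 or fewer. Among these tiles a count this low was therefore common. The tiles covered the whole arms end to end and held from 0 to 58 summits. They were not matched to the cluster in gene density or chromatin, so like stretches were not compared. The summits were spaced unevenly. A gap of 73.6 kb, from the summit at *tin* to the one upstream of *lbe*, contained the bodies of *tin*, *bap*, *lbl* and *lbe*. Another of 69.4 kb, from the summit of *sp3* to one beyond the interval, contained *slou*. The median gap between neighbouring IDR summits was 4.35 kb, and 3.39 and 3.77% of 8694 gaps were as long as these. These shares count gaps, not sequence, and long gaps take up a larger share of the arms than of the number of gaps.

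Of the 6 other protein-coding genes in the interval, *Ugt49B2*, *CG7907*, *CheB93a* and *CheB93b*, all between *bap* and *lbl*, had no IDR summit by the rule. *sp3*, between *C15* and *slou*, had the strongest summit of the interval, 576 bp upstream of its start (signal value 658, rank 398), and *Fancm*, a gene of DNA repair, had 2 (108 and 95.4). All 3 replicates supported the stronger of the *Fancm* summits. The weaker was supported by replicates 1 and 3 (ranks 7704 and 8551) and overlapped no row of replicate 2. The summit of *sp3* was 7538 bp from *C15* and outside its window. Ranks of the *sp3* peak in replicates 1, 2 and 3 were 461, 631 and 219. In the direction of *mod(mdg4)*, the next IDR summit beyond *tin*, inside that gene and 13548 bp from *tin*, had a signal value of 981 and rank 145.

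Homeobox genes of the same NK-like class outside the cluster stood at 10 of 21 (47.6%), against 50.9% of all protein-coding genes. Their median window was 18.9 kb, against 12.2 kb for all protein-coding genes. Of all genes with windows of 18 to 24 kb, 68.9% had a summit. Of the 17 whose windows were as long as those of the cluster genes, 8 (47.1%) had a summit, against 54.6% of all genes with such windows. These 17 had a median window of 17.6 kb, and 57.4% of all genes with windows of 14 to 18 kb had a summit. The strongest summit of the 21 genes stood 408 bp from the start of *NK7.1* (signal value 1049.5, rank 105), which had 11 summits in its window. It was followed by *inv* (294), the relative of the segment gene *engrailed*, *H2.0* (246), *Dr* (227) and *bsh* (208). The other 5 genes with a summit had weaker ones. The difference of these shares from that of the cluster genes was not tested.

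Regulators of heart and muscle that act beside the NK genes in the mesoderm stood at 18 of 24 (75.0%), against 50.9% of all protein-coding genes. Of the 18 with windows as long as those of the cluster genes, 13 (72.2%) had a summit, against 54.6%. Their median window was 17.2 kb, and 57.4% of all genes with windows of 14 to 18 kb had a summit. The 24 genes had a median window of 23.5 kb, and 68.9% of all genes with windows of 18 to 24 kb had a summit. They were led by *Mef2*, which encodes a muscle transcription factor (1585, rank 41), although this summit lay in an intron of the neighbouring *Pal1*. *Poxm* (929), *tup* (791), *zfh1* (625) and *nau* (464), the fly relative of MyoD, followed. The *tup* summit lay in an intron of the neighbouring *CG10602*. The list had 6 genes without a summit: *Doc3*, *mid*, *H15*, *ap*, *Kr* and *eve*. The list was not tested against the cluster genes, and the shares describe these genes only.

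Genes most like *tin* by number of summits and window length were *CG16789*, *Idh3b* and *Oseg5*, with 1 summit each in windows within 2 bp of its length. Their signal values were 1013, 152 and 104, so the value at *tin* lay within the range of these genes. For *bap* the nearest genes without a summit were *CG16781*, *CG32642* and *CG42876*. *CG11883*, *stai* and *CG32017* were nearest to *lbl*, and *CG15020*, *sina* and *boss* to *lbe*. The closest to *C15* were *Cubn2*, *Swim* and *Not1*, and to *slou* they were *Abcd3*, *Asx* and *CG8925*.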

How the data were processed

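Per the deposited file lists, peak lists were made for each of the 3 OdsH-GFP ChIP-seq replicates, against 1 shared control alignment, and for the pooled replicates, and the optimal IDR set came from these. Alignment and peak-calling tools: not given in the sources used here. Column 7 of the deposited lists, a signal value per peak from the authors' caller, was used for ranks within a list. Depth is unknown, so intervals that need it were not computed, and no p-value was calculated. Lists on dm3 were not used.

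Summits (peak start plus offset) were placed on dm6, and all peaks lie within the arm lengths of the release 6 assembly used. Genes came from Ensembl release 115 (BDGP6), protein-coding only. All 8700 IDR rows were the strongest 8700 of the 30000 pooled rows. The members, the other gene lists (21 and 24 genes, all matched, *Hhex* as *HHEX*) and the words were chosen with earlier results of these data known. Named genes were the 6 members, all genes of the interval, up to 5 genes with the strongest summits per list, and, per member, the 3 genes with equal summit number and nearest window length. The heart and muscle regulators without a summit were named as well. Counting was tested on simulated data. Alternatives covered the flank, the peak set, list length, overlap, window size and each replicate left out of the support count. Tools were Python 3.11.15, pandas 2.3.3, NumPy 2.4.6 and Matplotlib 3.10.9.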

Additional observations from a re-analysis of the deposited data

How the results depend on the processing

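The summit at *tin* was also found with flanks of 1000 bp, a reciprocal overlap of 50% and replicate summits within 250 bp. At 223 bp from the gene and rank 665, it could not be lost at 1000 bp or in a stricter IDR set. Support within the 8700 strongest rows likewise holds in replicate lists of greater length. Leaving out a replicate removed that replicate from the support count only, since the IDR set still came from all 3. That step could not change the result either. With the gene body only, 0 summits, 0 genes and 0 supported summits remained, against 14.8% of protein-coding genes, and no median could be given. With flanks of 10000 bp there were 4 summits at 3 of the genes (*tin*, *lbe* and *C15*), 3 of them supported by all 3 replicates, with a median signal value of 340, against 67.6% of genes. The share of genes was 30.3% with 1000 bp, 54.6% for genes with windows as long as those of the cluster genes and 37.7% in the stricter set. All 30000 pooled rows gave 25 summits at 6 genes. The median signal value was 157, 209 and 151 in the lists of replicates 1, 2 and 3, which have scales of their own. Density was 3.19 per 100 kb with 5000 bp added on each side of the interval and 0.914 in the windows alone. GC at *tin* was 13.7% with 25 bp to each side and 30.3% with 100 bp. TAATTA was absent in each window. With 1 summit at the members, no spread between summits can be given, and at unknown depth a summit that is missing cannot be called absence of binding.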

Other observations

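A word noticed while reading the summit sequences, GCGCCATC, stood in 3 of the 5 IDR summit windows (50 bp to each side) inside the cluster interval: the 2 beside *Fancm* and the 1 at *sp3*. It was searched on both strands and found in 36 of all 8700 IDR windows (0.414%). The windows at *tin* and upstream of *lbe* and *C15* did not hold it. Because the word was chosen after the sequences were seen, no test was made.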
